A study of Danio rerio with 24 samples.

Results

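Proteins leave the endoplasmic reticulum (ER) of a liver cell in coated vesicles, and 60 genes for the coats, cargo receptors and tethers of that step were followed in the livers of 24 zebrafish. The genes were taken by name from the gene table: those for Sar1, Sec13, Sec16, Sec22, Sec23, Sec24 and Sec31, the COPI subunits, the small GTPases Arf1 to Arf6, the p24 (Tmed) proteins, the TRAPP subunits, the Lman lectins, Mcfd2, Surf4 and Preb. Of 69 gene names that matched, 60 had more than 100 counts in at least 3 fish, as did 11801 of all 28210 entries in the table. The 9 that did not pass were lman2la, arf2b, arf3a, arf3b, arf4b, sec22c, tmed4, tmed6 and trappc9, and they entered no test.

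The fish carried human alpha-1-antitrypsin (AAT), a secreted protease inhibitor whose Z variant (ZAAT) folds poorly and is retained in the ER of liver cells in people. Z+ fish carried the transgene Tg(lfabp:eGFP-T2A-ZAAT), A+ fish carried Tg(lfabp:eGFP-T2A-AAT) with the wildtype protein, and the Z- and A- fish were the siblings of each line without a transgene. Each genotype had 6 fish, all 2 months old, and RNA was read from a part of each liver, the rest being used for proteins. A liver fatty acid binding protein promoter drives both transgenes, each of which also makes green fluorescent protein. The transgenic fish came from outcrosses to wildtype and were heterozygous, and neither the sex of a fish nor its sequencing run is in the sample descriptions, so neither could be entered in a fit. The labels call the replicates separate fish without saying how they were related, so each p-value measures the spread between these fish.

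COPII vesicles carry new proteins from the ER towards the Golgi. The exchange factor Preb loads the GTPase Sar1, which recruits the inner coat of Sec23 and Sec24; Sec24 binds cargo, Sec13 and Sec31 form the outer cage, and Sec16 organises the exit site. Soluble cargo is passed to the coat by receptors in the membrane such as Lman1 with its partner Mcfd2, Surf4 and the p24 proteins. COPI vesicles, made by Arf GTPases and the coatomer subunits, return receptors and escaped residents, and TRAPP complexes and Sec22 help vesicles to tether and fuse. In zebrafish, loss of sec23a (the mutant crusher), sec24d (bulldog) or the coatomer genes copa, copb1 and copb2 (sneezy, happy and dopey) disturbs the skeleton or the notochord, tissues with heavy secretion.

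Each library held 33898825 to 44715713 counted reads. The 60 genes together took 0.190% to 0.390% of the counts of a library. The transgene entry of the table had 24326 to 331234 counts in Z+ and 94778 to 192578 in A+ livers, against 5 to 274 in Z- and 9 to 236 in A- livers, which fits the labels of all 24 fish. All 8 hepatocyte markers were present, with a summed level of 41347 to 176058 counts per 1000000 counted reads (CPM). Vitellogenins, the yolk proteins that the liver of laying females secretes, took 51.6% of counts in Z+ fish 5 and 49.2% in Z- fish 2, against 5.19% or less in the other 22 livers. Z+ fish 5 and Z- fish 2 also had the lowest hepatocyte marker sums. These sums are shares of all counts, so the vitellogenin counts themselves lower them in those 2 fish. Ovary markers reached 4159 CPM in A+ fish 2. Exocrine pancreas markers reached 37193 CPM in A+ fish 1 and 23007 in A- fish 6, which also had the highest intestine marker sum, 13549 CPM. The main results are given with and without these fish.

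Gene levels are given in CPM after scaling by TMM, a method that sets the libraries to a common level for most genes. A gene was called higher or lower where edgeR's quasi-likelihood test gave a Benjamini-Hochberg adjusted p under 0.05 over the 11801 genes. Fold changes are log2 values with their standard error (SE). Levels are compared between fish and not between genes, since the table gives no gene lengths. In liver tissue of mixed cells, fewer cells of a type and less RNA per cell cannot be told apart.

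**Figure D1:**
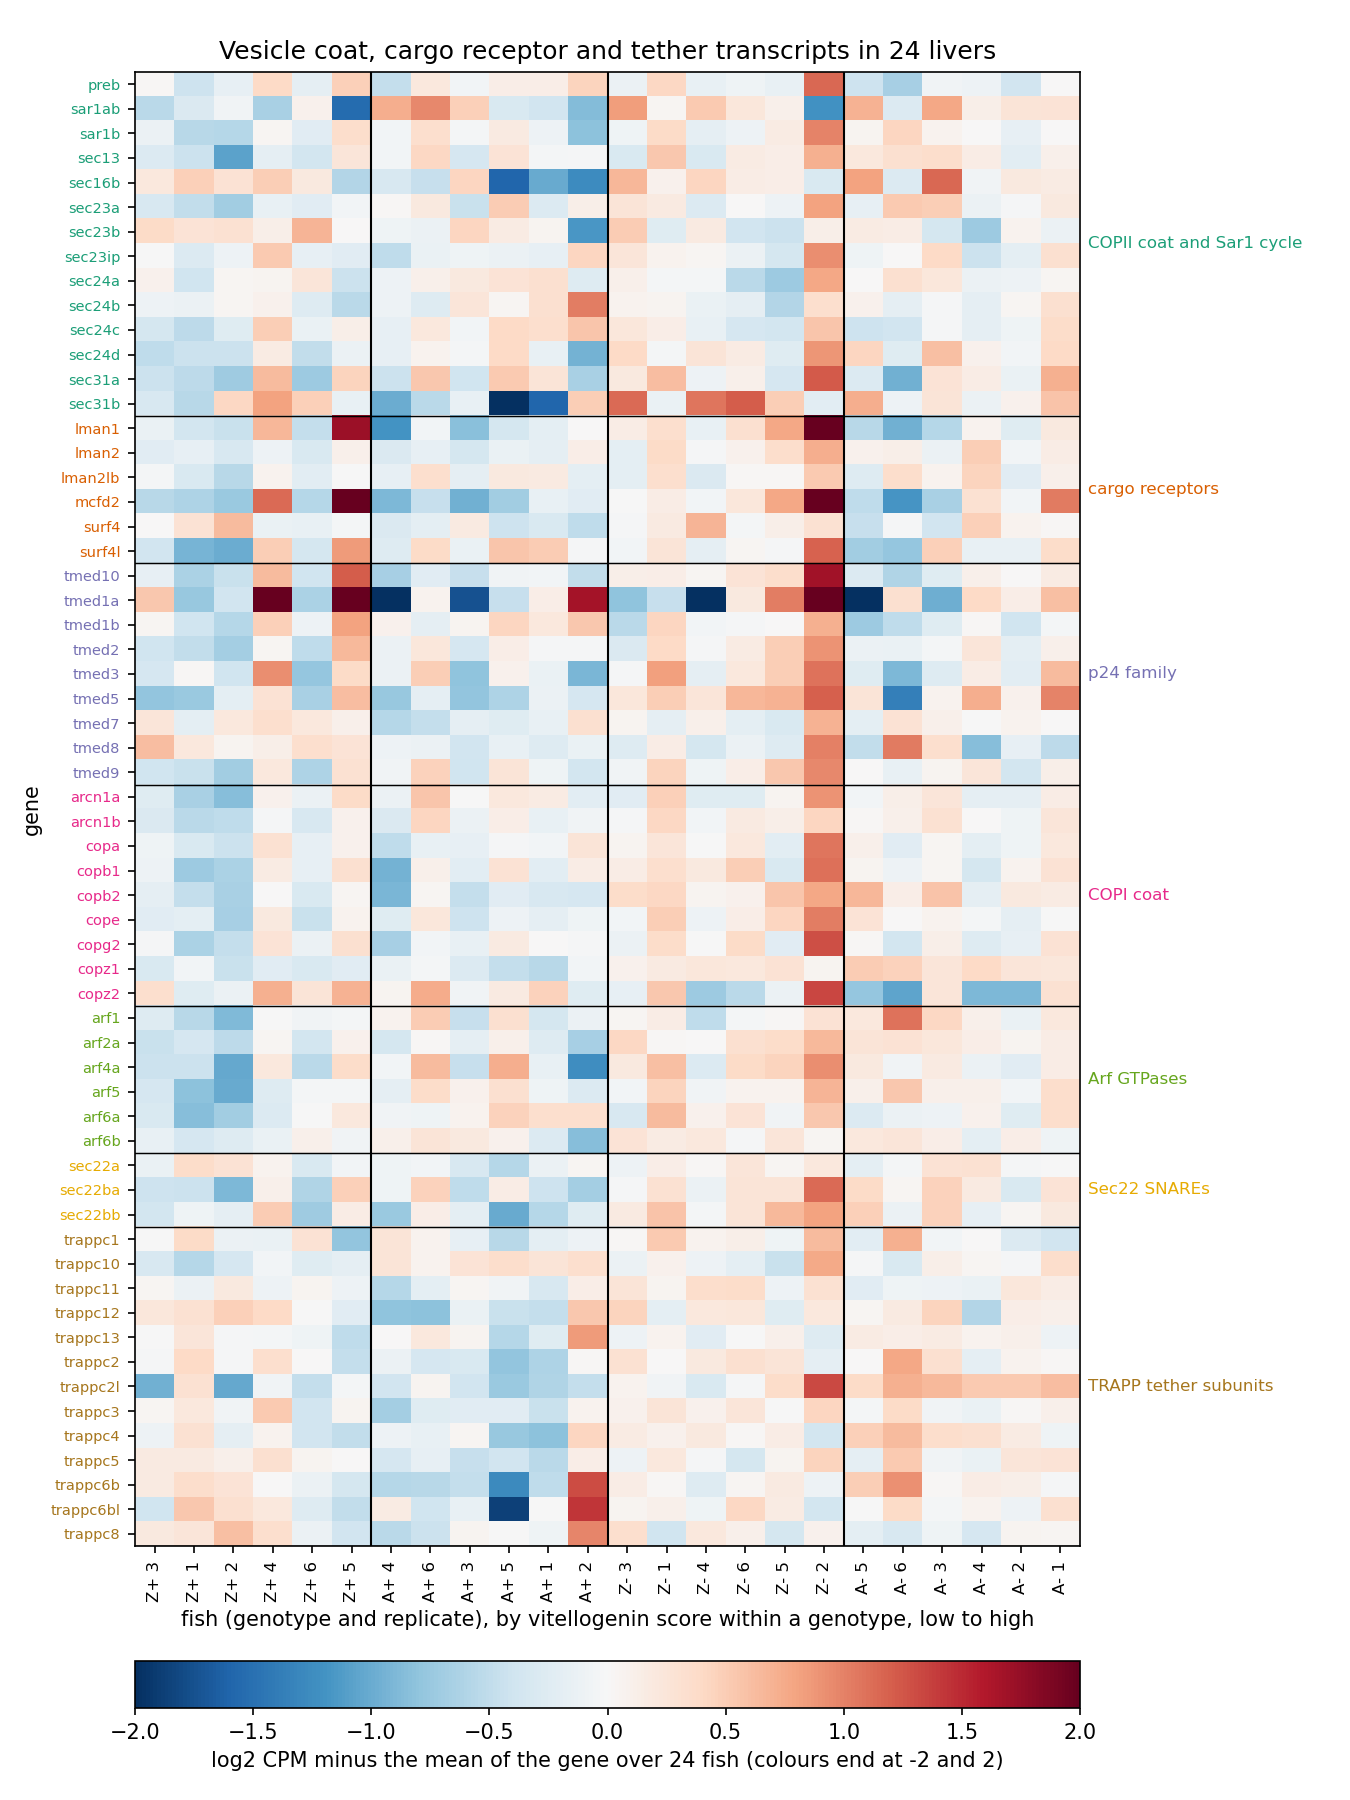
Level of each of the 60 genes (down the page, coloured and boxed by group) in each of 24 livers (across), as log2 CPM minus the mean of the gene over all fish, red above and blue below that mean. Within a genotype the fish run from low to high vitellogenin score, and the last Z+ and Z- fish, with 51.6% and 49.2% of counts on vitellogenins, are dark red for lman1, mcfd2 and tmed10.

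The 60 genes varied less between fish of one genotype than most genes. The median standard deviation of log2 CPM within a genotype was 0.36 for the 60, against 0.47 for all genes tested. The steadiest was copz1, the zeta subunit of the COPI coat, at 0.15, and the most variable were the p24 gene tmed1a at 1.49 and mcfd2 at 0.90. In the heatmap of all 60 genes, lman1, mcfd2 and tmed1a stand out by single fish, and copz1 by its even colour within each genotype.

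Few of the 60 genes were called between livers with ZAAT and livers with wildtype AAT. Of the 60, 0 were called higher and 1 lower in Z+ compared with A+, where 5.91% of all genes were called higher, 5.92% lower and 11.8% in either direction. Against their own siblings, Z+ livers had 6 of the 60 lower and 0 higher, where 5.17% of all genes were called lower, 7% higher and 12.2% in either direction. A+ livers had 4 lower and 0 higher compared with A- livers, where 4.86% of all genes were called lower, 5.27% higher and 10.1% in either direction. The shares of the 60 in either direction, 1.67%, 10.0% and 6.67%, were thus below those of all genes in each of the 3 comparisons, while the calls in them ran one way. The median log2 fold change of the 60 was -0.01 in Z+ compared with A+, -0.33 in Z+ compared with Z- and -0.11 in A+ compared with A-, beside -0.02, 0.03 and 0.005 for all genes. The median near 0 in Z+ compared with A+ joins groups that lay apart, from -0.29 for the Arf genes to 0.30 for the p24 genes. There 12 of the 60 had an unadjusted p under 0.05, as did 3270 of all 11801 genes. In Z+ compared with Z-, 50 of the 60 had a fold change below 0, and scaled by library totals alone the median there was -0.34, beside -0.03 for all genes. In Z- compared with A-, 46 of the 60 had a fold change above 0. The median there was 0.14, beside -0.01 for all genes. Z- fish 2, with 49.2% of counts on vitellogenins, entered these folds. Without it those of lman1 and mcfd2 were 0.61 and 0.25, the lowest of the 24 fits that each left out 1 fish.

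**Figure D2:**
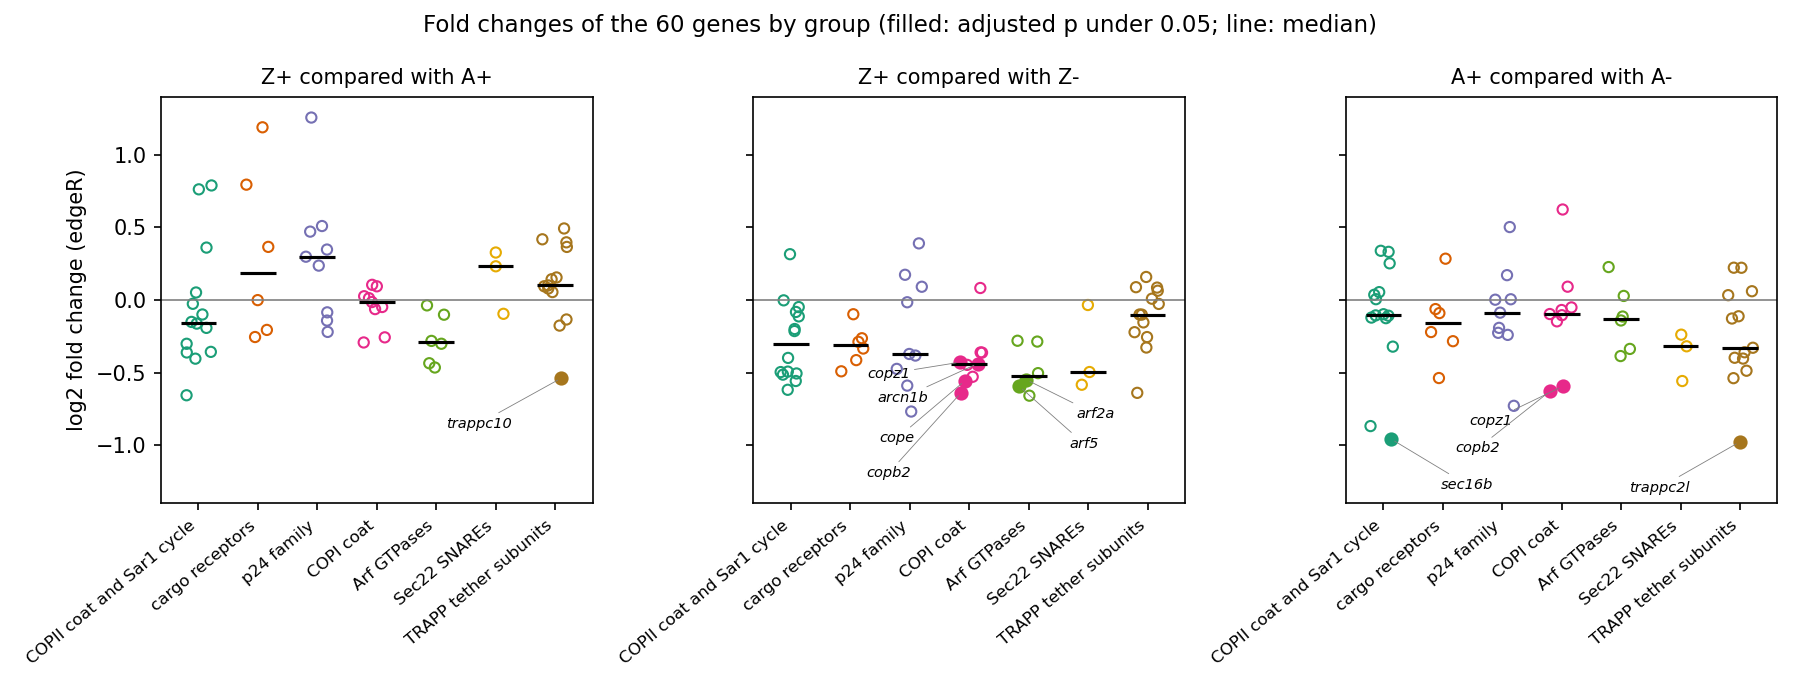
Log2 fold change (vertical axis) of each of the 60 genes in Z+ compared with A+, Z+ compared with Z-, and A+ compared with A-, by gene group (horizontal axis); filled points have an adjusted p under 0.05 and lines are group medians. All 11 filled points lie below 0, and 4 of the 6 in Z+ compared with Z- are COPI subunits.

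Of the 9 COPI coat genes, 4 were called lower in Z+ compared with Z- livers, the zeta subunit copz1, the beta-prime subunit copb2, the epsilon subunit cope and the delta subunit arcn1b, and 2 of them, copz1 and copb2, were also called lower in A+ compared with A- livers. The median fold change of the 9 was -0.44 in the Z line and -0.10 in the A line. Between the fish without a transgene, Z- compared with A-, it was 0.31, with 8 of the 9 above 0. The Z line and A line comparisons share no fish. The 2 genes called lower in both are 33.3% of those called lower in the Z line and 50% of those in the A line. Of all genes, 144 were called lower in both lines, 23.6% of those lower in the Z line and 25.1% of those in the A line.

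The lowest, median and highest levels of copz1 were 32.3, 36.5 and 42.02 CPM in Z+ livers and 29.9, 38.1 and 42.7 CPM in A+ livers, against 45.3, 49.96 and 53.4 CPM in Z- and 51.2, 54.99 and 62.1 CPM in A- livers. On the TMM scale no transgenic fish overlapped with a fish without a transgene: the highest of the 12 transgenic livers had 42.7 CPM and the lowest of the 12 others 45.3 CPM. Of all genes tested, 0.203% lay lower in this way and 0.0932% higher, and copz1 was the only one of the 60. The TMM factors ran from 0.593 in Z- fish 2 to 1.75 in A+ fish 2. Before that scaling the groups overlapped: A+ fish 2 had 2560 counts of copz1 in 35981061 reads, and Z- fish 2 had 910 in 33898825. Z+ livers held 74.3% of the Z- level (log2 fold change -0.43, SE 0.11, edgeR adjusted p = 0.011) and A+ livers 66.2% of the A- level (log2 fold change -0.59, SE 0.11, edgeR adjusted p = 0.0041). The calls in both lines were kept with each of the 24 fish left out in turn, and were lost when libraries were scaled by their totals alone, where the adjusted p was 0.20 in the Z line and 0.16 in the A line. With only the A+ and A- fish in the fit, the A line gave adjusted p = 0.056. Between the 2 transgenes copz1 differed by -0.01 (95% interval -0.24 to 0.21), and the test of whether the transgene step differed between the lines gave 0.17 (interval -0.15 to 0.48, adjusted p = 0.53).

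The level of copb2, whose product is one of the coatomer subunits that bind the retrieval signals of cargo, had a lowest, median and highest of 75.98, 100.5 and 123 CPM in Z+ and 63.04, 94.9 and 122 CPM in A+ livers, against 123, 157 and 204 CPM in Z- and 105, 135 and 188 CPM in A- livers. All Z+ fish lay below all Z- fish, although the highest Z+ and the lowest Z- fish were close, while A+ and A- fish overlapped. Of all genes, 3% had all Z+ fish below all Z- fish. The Z+ level was 64.3% of the Z- level (log2 fold change -0.64, SE 0.18, edgeR adjusted p = 0.02) and the A+ level 64.7% of the A- level (log2 fold change -0.63, SE 0.18, edgeR adjusted p = 0.026). Scaling by library totals ended both calls, with adjusted p = 0.084 and 0.13, as did leaving out Z+ fish 2 or Z- fish 2 in the Z line (0.056 and 0.053) and A+ fish 4, A- fish 3 or A- fish 5 in the A line (0.053, 0.062 and 0.073). With only the A+ and A- fish in the fit, the A line call was also lost, where 1.13% of all genes were called.

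For cope and arcn1b the genotypes overlapped more. Z+ livers had 56.2 ± 12.3 CPM of cope and Z- livers 82.7 ± 26.2 CPM (mean ± SD, n = 6 each; log2 fold change -0.56, SE 0.18, edgeR adjusted p = 0.043). The arcn1b level was 47.7 ± 8.39 CPM in Z+ and 64.6 ± 9.43 CPM in Z- livers (log2 fold change -0.44, SE 0.14, edgeR adjusted p = 0.043). Each of these calls was lost with any of 8 fish left out. In A+ compared with A- livers the fold changes of cope and arcn1b were -0.15 and -0.10, without a call. The other 5 COPI genes (copa, copb1, copg2, copz2 and arcn1a) were called in none of the comparisons of genotypes by edgeR or DESeq2.

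**Figure D3:**
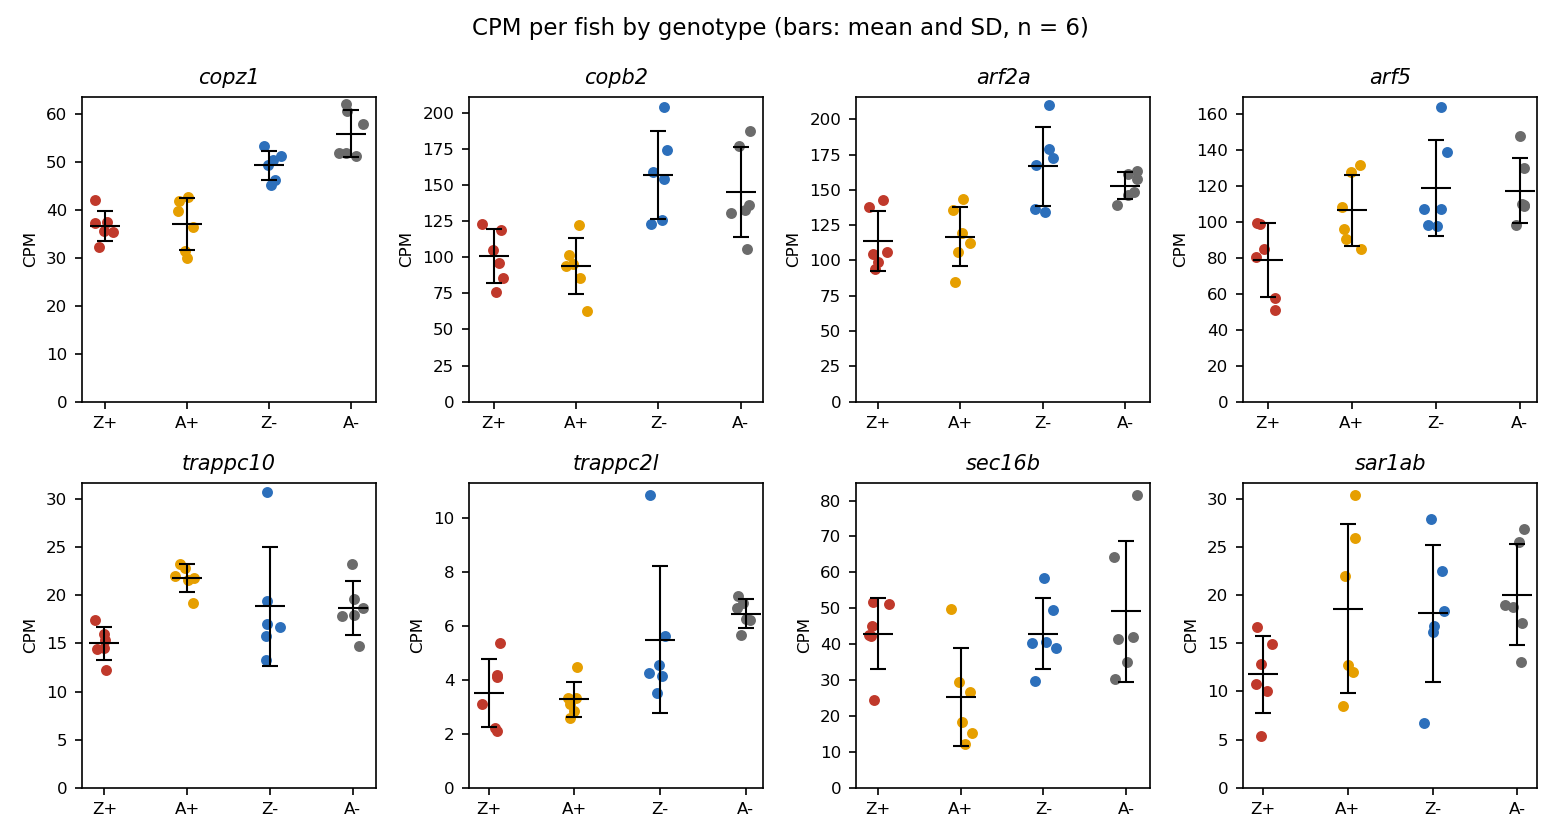
CPM (vertical axis, from 0) of 8 genes in each fish by genotype (horizontal axis, Z+, A+, Z-, A-), with the mean and SD of 6 fish. After TMM scaling the copz1 levels of all 12 transgenic fish lie under 42.8 CPM and those of the 12 other fish above 45.2 CPM, and trappc10 of all Z+ fish lies below all A+ fish.

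Arf GTPases recruit coatomer to Golgi membranes. Of the 6 Arf genes tested, arf2a and arf5 were lower in Z+ than in Z- livers, and all 6 had fold changes below 0 in that comparison, with a median of -0.53. The lowest, median and highest arf2a levels were 93.7, 105 and 143 CPM in Z+ livers, 85.1, 116 and 144 CPM in A+ livers, 135, 170.1 and 209.9 CPM in Z- livers and 139, 153 and 164 CPM in A- livers. Most transgenic fish lay below most others, with overlap at the edges. Z+ livers held 68.4% of the Z- level (log2 fold change -0.55, SE 0.14, edgeR adjusted p = 0.016), a call kept with each fish left out in turn and lost on library totals alone (adjusted p = 0.053), and A+ livers 76.5% of the A- level (log2 fold change -0.39, SE 0.14, edgeR adjusted p = 0.088).

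The class II Arf gene arf5 had its lowest median in Z+ livers, and the Z+ range overlapped with that of each other genotype. It had 50.8, 82.7 and 99.3 CPM (lowest, median and highest) in Z+ livers, 84.8, 102 and 132 CPM in A+ livers, 97.5, 107 and 164 CPM in Z- livers and 98.1, 109.6 and 148 CPM in A- livers. The Z+ level was 66.2% of the Z- level (log2 fold change -0.59, SE 0.18, edgeR adjusted p = 0.035) and 73.96% of the A+ level (log2 fold change -0.44, SE 0.18, edgeR adjusted p = 0.12). The first call was lost without any of 5 fish and on library totals (adjusted p = 0.064).

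When the Z+ fish were set against the mean of Z- and A-, 8 of the 60 were called lower and 0 higher, where 7.66% of all genes were called lower, 9.16% higher and 16.8% in either direction. This comparison shares its Z+ and Z- fish with the one above. The 8 were copz1, copb2 and arcn1b of COPI, arf2a and arf5, the TRAPP gene trappc2l, and the inner COPII coat genes sec23a and sec24d. The smallest adjusted p was that of copz1, at 69.8% of the mean level (log2 fold change -0.52, SE 0.09, edgeR adjusted p = 0.00061).

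Of 14 genes for the coat, Sar1 and their regulators, edgeR called 0 in Z+ compared with A+ (2 at an unadjusted p under 0.05, 0 by DESeq2). It called 0 between Z+ and Z- livers (3 at an unadjusted p under 0.05, and sec23a and sec24d by DESeq2), and 1 lower in A+ compared with A-. Of all genes, edgeR called 11.8%, 12.2% and 10.1% in these comparisons, and DESeq2 16.6% and 18.2% in the first 2. Between Z+ and Z- livers the median fold change of the 14 was -0.31. There 13 of the 14 lay below 0, as did 5625 of all 11801 genes. In edgeR's fit against the mean of Z- and A-, 2 of the 14, sec23a and sec24d, passed narrowly. The zebrafish crusher gene sec23a had a lowest, median and highest level of 12.03, 16.03 and 18.8 CPM in Z+, 14.3, 20.4 and 27.6 CPM in A+, 16.1, 20.7 and 34.1 CPM in Z- and 17.4, 20.7 and 28.03 CPM in A- livers (log2 fold change -0.49, SE 0.17, edgeR adjusted p = 0.046 for Z+ against the mean of Z- and A-). The bulldog gene sec24d had 30.3, 31.9 and 48 CPM in Z+, 22.3, 40.2 and 56.3 CPM in A+, 36.1, 49.6 and 79.1 CPM in Z- and 36.3, 50.96 and 65.4 CPM in A- livers (log2 fold change -0.54, SE 0.18, edgeR adjusted p = 0.048). Genotypes overlapped for both, and the calls were lost in 14 and 16 of the 24 fits that each left out 1 fish.

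The other cargo-binding coat genes gave no call between genotypes. The paralogue sec23b, whose human form is mutated in congenital dyserythropoietic anaemia type II, had a fold change above 0, with 260.5, 316 and 415 CPM (lowest, median and highest) in Z+, 115, 256 and 347 CPM in A+, 191, 249 and 367 CPM in Z- and 156, 256 and 288 CPM in A- livers (log2 fold change 0.36, SE 0.19, edgeR adjusted p = 0.19 against the mean of Z- and A-). The fold changes of sec24a, sec24b and sec24c in Z+ compared with Z- were -0.05, -0.08 and -0.11, against -0.56 for sec24d. The gene sec24a had 43.04, 59.6 and 68.4 CPM in Z+, 48.1, 64.2 and 72.2 CPM in A+, 34.7, 55.98 and 98.1 CPM in Z- and 52.9, 58.6 and 71.9 CPM in A- livers. These ranges all overlapped. Those of sec24b were 12.8, 17.2 and 19.8 CPM in Z+, 15.6, 20.4 and 37.7 CPM in A+, 12.3, 18.1 and 23.3 CPM in Z- and 16.3, 18.6 and 23.2 CPM in A- livers. The highest belonged to A+ fish 2, the liver with the most ovary marker counts. For sec24c they were 25.9, 32.8 and 52.5 CPM in Z+, 33.2, 45.04 and 54.8 CPM in A+, 28.95, 37.2 and 54.5 CPM in Z- and 28.1, 34.01 and 48.1 CPM in A- livers, again with overlap.

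The GTPase gene sar1b, whose human form is mutated in chylomicron retention disease, had lowest, median and highest levels of 61.7, 81.7 and 117 CPM in Z+, 51.8, 88.4 and 116 CPM in A+, 81.4, 94.8 and 182 CPM in Z- and 81.7, 93.5 and 124 CPM in A- livers. The ranges overlapped, and its fold change in Z+ compared with Z- was -0.40 (95% interval -0.84 to 0.04, adjusted p = 0.21 by edgeR).

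The exit site scaffold gene sec16b was low in A+ livers. It had 24.5, 43.8 and 51.7 CPM in Z+, 12.2, 22.5 and 49.8 CPM in A+, 29.9, 40.5 and 58.4 CPM in Z- and 30.4, 41.8 and 81.5 CPM in A- livers. In 5 of 6 A+ fish it lay below all A- fish, and A+ fish 3 was the exception. The A+ level was 51.5% of the A- level (log2 fold change -0.96, SE 0.30, edgeR adjusted p = 0.043), and the Z+ level was 169% of the A+ level (log2 fold change 0.76, SE 0.30, edgeR adjusted p = 0.096) and close to Z- (log2 fold change -0.00, 95% interval -0.62 to 0.61). The difference between the 2 transgene steps was 0.95 (adjusted p = 0.19), so the steps were not shown to differ. The A line call was lost without A+ fish 2 and A- fish 6 (adjusted p = 0.055, log2 fold change -0.95), on library totals (0.088) and with only the A+ and A- fish in the fit (0.16). It was also lost in 11 of the 24 fits that each left out 1 fish, with adjusted p up to 0.11 and log2 fold changes of -1.27 to -0.75.

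The 6 tested lman, mcfd2 and surf4 genes, for receptors of soluble cargo, gave 0 calls between genotypes in edgeR's fit of genotype alone. In Z+ compared with Z- all 6 had a fold change below 0, with a median of -0.31 and 1 at an unadjusted p under 0.05. In human cells LMAN1 (ERGIC-53) with MCFD2 carries coagulation factors V and VIII, and LMAN1 also binds antitrypsin. Their levels had lowest, median and highest values of 86.3, 100.99 and 393 CPM of lman1 in Z+, 52.4, 98.99 and 121 CPM in A+, 108, 151 and 602 CPM in Z- and 61.6, 91.5 and 137 CPM in A- livers. For mcfd2 they were 64.9, 73.8 and 507 CPM in Z+, 56.05, 73.4 and 98.1 CPM in A+, 104, 124 and 612 CPM in Z- and 48.1, 90.5 and 224 CPM in A- livers. The highest value of each Z group belonged to Z+ fish 5 or Z- fish 2. The fold changes in Z+ compared with A+ were 0.79 for lman1 (95% interval -0.08 to 1.66, edgeR adjusted p = 0.22) and 1.19 for mcfd2 (0.07 to 2.31, adjusted p = 0.15). Without Z+ fish 5 and Z- fish 2 they were 0.29 for lman1 and 0.47 for mcfd2 (adjusted p = 0.49 and 0.41), and with a vitellogenin score in the model 0.34 and 0.43.

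Surf4 is a multi-pass receptor that helps lipoproteins leave the ER in mouse liver. The zebrafish gene surf4 had 25.02, 27.4 and 42.9 CPM (lowest, median and highest) in Z+, 19.6, 22.6 and 31.4 CPM in A+, 26.99, 30.7 and 44.6 CPM in Z- and 20.05, 27.8 and 38.5 CPM in A- livers. Its relative surf4l had 8.85, 13.8 and 32.01 CPM in Z+, 14.8, 20.1 and 26.1 CPM in A+, 15.6, 17.8 and 40.1 CPM in Z- and 10.4, 15.97 and 24.5 CPM in A- livers. The genotypes overlapped for both, and the fold changes in Z+ compared with A+ were 0.37 (adjusted p = 0.18) and -0.26 (adjusted p = 0.64). The mannose-binding lectin genes lman2 and lman2lb gave no call in edgeR's fit of genotype alone, and DESeq2 called lman2 lower in Z+ than in Z- livers (-0.43, adjusted p = 0.027).

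The TRAPP complexes tether incoming vesicles, and trappc10, a subunit that marks the TRAPPII form, was the 1 gene of the 60 called between the 2 transgenes. Its lowest, median and highest levels were 12.2, 14.97 and 17.4 CPM in Z+ livers, 19.1, 21.9 and 23.3 CPM in A+ livers, 13.3, 16.9 and 30.7 CPM in Z- livers and 14.7, 18.3 and 23.3 CPM in A- livers. All Z+ fish lay below all A+ fish, as for 1.08% of all genes, and the fish without a transgene overlapped with both. The Z+ level was 68.9% of the A+ level (log2 fold change -0.54, SE 0.16, edgeR adjusted p = 0.033). The call was lost without Z+ fish 1, 2 or 3 or A+ fish 5, where the adjusted p was 0.074, 0.073, 0.055 and 0.054, and the fold change there was -0.48 to -0.53.

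Among the TRAPP genes, 10 of the 13 had fold changes above 0 in Z+ compared with A+. Without A+ fish 2, the count of called genes of the 60 was 7 in place of 1 and the share of all genes 13.9%, with 6 genes higher. The 6 were the core subunits trappc3, trappc5 and trappc6b, the TRAPPIII subunit trappc12, the outer coat gene sec31b and the p24 gene tmed7. The trappc5 level was 6.57 ± 0.516 CPM in Z+ and 4.92 ± 0.891 CPM in A+ livers (mean ± SD, n = 6 each), with log2 fold changes of 0.42 with all fish (edgeR adjusted p = 0.077) and 0.51 without A+ fish 2 (adjusted p = 0.022). For trappc6b the fold change was 0.15 with all fish and 0.73 without that fish, which had the highest level of any liver at 8.25 CPM. A+ fish 2 carried the ovary markers, whose part in these levels was not tested.

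In the A line the core subunit gene trappc2l was lower. It had lowest, median and highest levels of 2.12, 3.60 and 5.35 CPM in Z+ livers, 2.59, 3.21 and 4.48 CPM in A+ livers, 3.52, 4.41 and 10.9 CPM in Z- livers and 5.65, 6.45 and 7.12 CPM in A- livers. All A+ fish lay below all A- fish, as for 2.01% of all genes, while Z+ and Z- fish overlapped. The A+ level was 50.8% of the A- level (log2 fold change -0.98, SE 0.25, edgeR adjusted p = 0.022). Against the mean of Z- and A-, the Z+ level was also lower (log2 fold change -0.76, SE 0.23, edgeR adjusted p = 0.024, lost without Z+ fish 2, 3 or 6), and against Z- alone it missed the threshold (log2 fold change -0.64, SE 0.25, edgeR adjusted p = 0.096). With the replicate number as a block in edgeR's fit, the A line call was lost (adjusted p = 0.05007). That against the mean of Z- and A- was lost there too (0.0503). Counts of this gene were low, 76 to 333 in a library.

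The A line comparison held other differences. Of 10 ovary markers listed, 5 passed the count filter. All 5 were called higher in A+ compared with A- livers, among them zp3b and zar1. A gene low in A- livers passes that filter only through other livers, so these calls are no separate support. The summed level of all 10 was 2.53 to 4159 CPM in A+ against 0.466 to 5.48 in A- livers. In A+ fish 1, 2 and 3 it was 181, 4159 and 77.2 CPM. Without A+ fish 2 and A- fish 6, copz1, copb2 and trappc2l were still lower in A+ than in A- livers, at log2 fold changes of -0.60, -0.65 and -0.93 (edgeR adjusted p = 0.0041, 0.046 and 0.049).

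The p24 genes gave 0 calls between genotypes in edgeR's fit of genotype alone, as did the 3 Sec22 genes, and DESeq2 called 1, tmed9, lower in Z+ than in Z- livers (log2 fold change -0.61, adjusted p = 0.033). In Z+ compared with A+, tmed8 lay higher in all Z+ fish than in all A+ fish, as did 2.25% of all genes, with 4.08, 4.65 and 6.06 CPM in Z+ and 3.003, 3.55 and 3.66 CPM in A+ livers. It missed the threshold (log2 fold change 0.47, SE 0.27, edgeR adjusted p = 0.27), and A- fish covered the range of both. In edgeR's test 1 of the 9 p24 genes and 0 of the 3 Sec22 genes had an unadjusted p under 0.05 in Z+ compared with A+, and 3 and 2 of them between Z+ and Z- livers.

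Between fish without a transgene, 46 of the 60 had a fold change above 0 in Z- compared with A-, with a median of 0.14. Of the 60, 0 were called in Z- compared with A- (3 at an unadjusted p under 0.05, and 0 also by DESeq2 and by limma voom), where 1.17% of all genes were. The test of whether the step with the transgene differed between the lines called 0 of the 60 by edgeR (4 at an unadjusted p under 0.05, 0 by DESeq2, and trappc5 and trappc6b by voom), where 0.525% of all genes were called. The lines are not shown to respond differently in these genes, nor to respond alike.

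The number of calls depended on single fish, among the 60 and among all genes. In Z+ compared with Z-, where the 60 held 6 calls, 14 genes were called without Z+ fish 5, 2 without Z+ fish 2 or Z- fish 2, and 3 without Z+ fish 1, Z+ fish 3 or Z- fish 1. The share of all genes, 12.2% with all fish, was 18% without Z+ fish 5. It was 7.8% without Z+ fish 2 and 9.51% without Z- fish 2. Without Z+ fish 1, Z+ fish 3 or Z- fish 1 it was 10.2%, 7.64% and 8.69%. With both Z+ fish 5 and Z- fish 2 left out, 6 were called and 12.8% of all genes: copz1, copb2, arcn1b, arf2a and arf5 again, and the p24 gene tmed2 in place of cope. Without A+ fish 2 and A- fish 6, the fit gave 13, all lower, where 24.2% of all genes were called.

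Some of the widest differences between fish went with vitellogenin. The range over the fish was 5.57 log2 units for tmed1a, 3.67 for mcfd2 and 3.52 for lman1. It was 4.07 for sec31b and 3.30 for trappc6bl, neither of which is among the genes called below. In a fit of genotype and a vitellogenin score (the mean log2 CPM of 7 vitellogenin genes, 2.03 to 16.2 over the fish), 12 of the 60 were called higher and 2 lower with a higher score, where 10.8% of all genes were called higher and 6.14% lower. The 12 were the receptor genes mcfd2, lman1 and surf4l, the p24 genes tmed10, tmed1a, tmed5, tmed2 and tmed1b, and preb, sec24c, arf6a and trappc10. The 2 were the GTPase gene sar1ab and sec16b. No COPI gene was called, with 3 of 9 at an unadjusted p under 0.05. None of these calls was kept without Z+ fish 5 and Z- fish 2. Leaving them out also narrows the score to 2.03 to 12.1, so a lost call does not by itself mean a smaller slope. Without both, edgeR called 0 of the 60 and 0.652% of all genes, with 7 of the 60 (11.7%) and 19.1% of all genes at an unadjusted p under 0.05. The 14 slopes kept their sign without the pair.

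The gene mcfd2 had the smallest adjusted p. It rose by 0.19 log2 units for each log2 unit of the score (slope 0.19, SE 0.025, edgeR adjusted p = 0.00011). Z+ fish 5 had 507 CPM and Z- fish 2 612 CPM, and the other 22 livers 48.1 to 240 CPM with a median of 86.1 CPM. The highest of the 22 were Z+ fish 4 at 240 CPM and A- fish 1 at 224 CPM, so the genotypes with and without a transgene both held high livers. Without the pair the slope was 0.14 and the adjusted p 0.059.

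Its partner gene lman1 had 393 CPM in Z+ fish 5 and 602 CPM in Z- fish 2, against 52.4 to 205 CPM and a median of 106 CPM in the other 22 livers (slope 0.14, SE 0.022, edgeR adjusted p = 0.00066, and 0.079 with adjusted p = 0.15 without the pair). The delta-class p24 gene tmed10 had 366 and 508 CPM in the same 2 fish, against 99.5 to 244 CPM and a median of 146 CPM in the others (slope 0.099, SE 0.018, edgeR adjusted p = 0.0017, and 0.051 with adjusted p = 0.23 without the pair). The most variable gene, tmed1a, had 29.8 and 29.0 CPM in the 2 fish, against 0.601 to 18.8 CPM in the others (slope 0.24, SE 0.054, edgeR adjusted p = 0.006, and 0.19 with adjusted p = 0.21 without the pair). For each of these 3 genes the 2 fish lay above all others. The gene tmed5 kept its slope, 0.093 with the pair and 0.093 without it, with adjusted p = 0.0060 and 0.12.

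**Figure D4:**
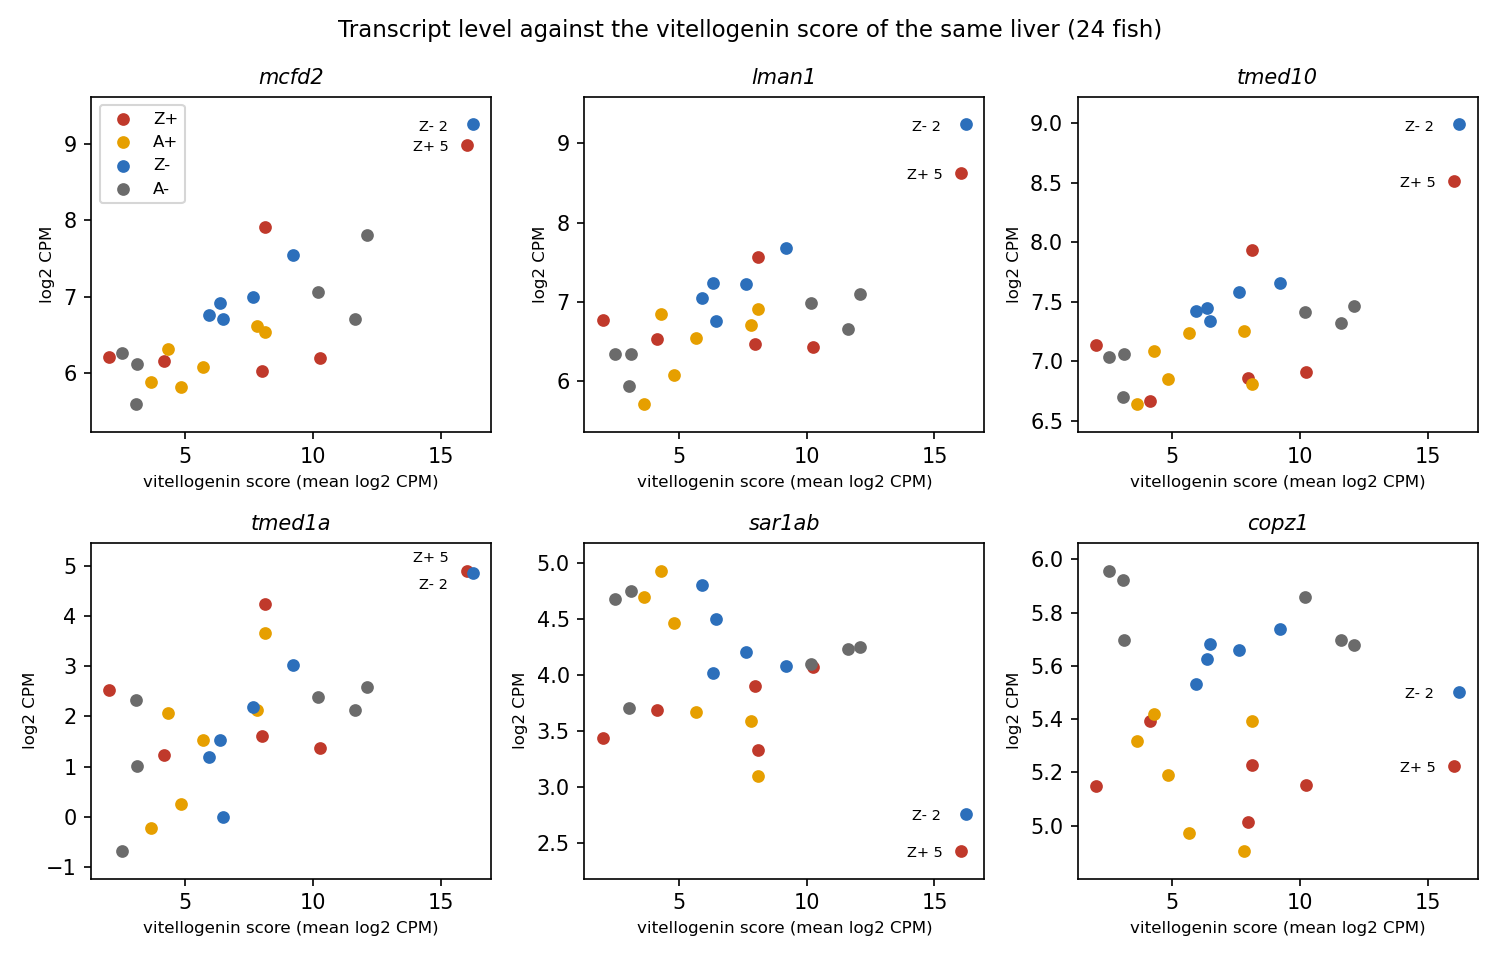
Log2 CPM (vertical axis) of 6 genes against the vitellogenin score (mean log2 CPM of the vitellogenin genes, horizontal axis) in 24 livers, coloured by genotype. Z+ fish 5 and Z- fish 2 stand at the far right, above the other 22 livers for mcfd2, lman1, tmed10 and tmed1a and below them for sar1ab, while the copz1 levels of transgenic and other fish do not overlap on the TMM scale.

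In all, 9 of the 60 genes (15%) were higher in both Z+ fish 5 and Z- fish 2 than in any other liver, beside 3.86% of all genes, and 1 (1.67%) was lower in both, beside 2.02% of all genes. The 9 were the 7 named receptor and p24 genes other than tmed5, with preb and sec22ba. The 1 gene lower in both was sar1ab, with 5.38 CPM in Z+ fish 5 and 6.77 CPM in Z- fish 2, against 8.55 to 30.4 CPM and a median of 17.0 CPM in the other 22 (slope -0.089, SE 0.03, edgeR adjusted p = 0.044, and -0.042 with adjusted p = 0.50 without the pair). The scaffold gene sec16b had slope -0.075 (SE 0.025, edgeR adjusted p = 0.046), and -0.069 with adjusted p = 0.28 without the pair. Scaled by library totals alone, 4 genes were called higher and 2 lower with the score, where 12.4% of all genes were called.

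**Figure D5:**
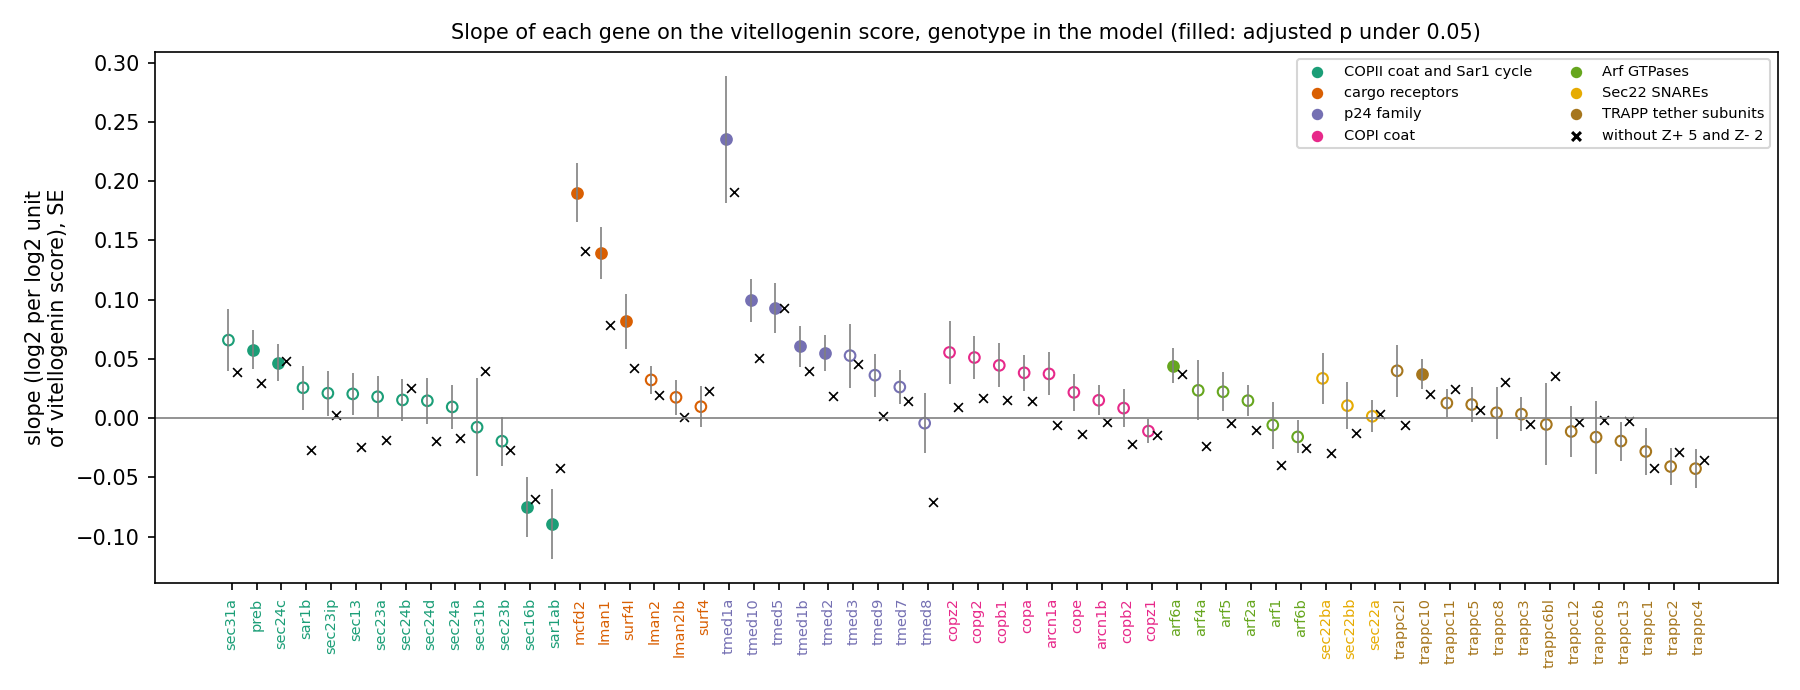
Slope of each of the 60 genes on the vitellogenin score (vertical axis, log2 units per log2 unit, with SE) by gene group (horizontal axis), filled where the adjusted p is under 0.05; crosses give the slope without Z+ fish 5 and Z- fish 2. The tallest are tmed1a at 0.24, mcfd2 at 0.19 and lman1 at 0.14, and the crosses for mcfd2 and lman1 fall to 0.14 and 0.079.

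With the score in the model, all genotype calls among the 60 were kept. These were 1 in Z+ compared with A+, 6 in Z+ compared with Z- and 8 against the mean of Z- and A-. In A+ compared with A- all 4 were kept. The fold changes of copz1 were -0.43 in Z+ compared with Z- and -0.61 in A+ compared with A- (edgeR adjusted p = 0.0070 and 0.0017), and that of trappc10 in Z+ compared with A+ was -0.62 (0.0048). That fit called more of all genes: 18.7%, 15.9%, 20.9% and 15.6% in these comparisons, in the order above. With genotype alone the shares were 11.8%, 12.2%, 16.8% and 10.1%. Among the 60 it also called members that the fit of genotype alone did not, to be read beside that rise. Between Z+ and A+ livers these were sec16b and trappc2, higher at 0.95 and 0.48 (adjusted p = 0.018 and 0.045), and arf6a, lower at -0.58 (0.017). In Z+ livers tmed5, arf6a and lman2 were lower than in Z- livers, at -0.75, -0.50 and -0.38 (adjusted p = 0.027, 0.037 and 0.039), and these 3 and sec13 were called lower against the mean of Z- and A-, sec13 at -0.50 (0.043). In the A line trappc2 and trappc4 were called lower at -0.58 and -0.53 (0.020 and 0.039) and tmed1b higher at 0.58 (0.036).

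Other genes of the same route were also called. Of a list of 51 tested genes for Rab GTPases, SNAREs, Golgi tethers and their partners, 6 were called lower and 0 higher in Z+ compared with Z-, a share of lower calls to be read beside the 5.17% of all genes. The vesicle GTPase gene rab2a had 55.4, 72.2 and 87.3 CPM (lowest, median and highest) in Z+ and 95.8, 101.5 and 124 CPM in Z- livers, without overlap (log2 fold change -0.52, SE 0.13, edgeR adjusted p = 0.0096). The SNARE-binding gene scfd1 (Sly1) held 61.1% of the Z- level (log2 fold change -0.71, SE 0.18, edgeR adjusted p = 0.013), and napaa, an alpha-SNAP gene that recycles SNAREs, 68.5% (log2 fold change -0.55, SE 0.15, edgeR adjusted p = 0.018). In A+ compared with A- livers 3 were called lower and 0 higher, where 4.86% and 5.27% of all genes were. They were led by napaa with 3.20, 3.71 and 4.11 CPM in A+ and 6.16, 7.56 and 7.86 CPM in A- livers (log2 fold change -0.98, SE 0.15, edgeR adjusted p = 0.0014). For vitellogenin 11 of the 51 were called higher and 0 lower, beside the 10.8% and 6.14% of all genes, led by arfgap3, which switches off Arf1 (slope 0.24, SE 0.038, edgeR adjusted p = 0.00069). Without Z+ fish 5 and Z- fish 2, 0 of the 51 were called (3 at an unadjusted p under 0.05), and the arfgap3 slope was 0.20 (adjusted p = 0.067).

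Among 11 tested transcription factors known to act on secretory genes, 3 were called higher in Z+ than in A+ livers and 2 in Z+ than in Z- livers, where 5.91% and 7% of all genes were. The liver factor gene creb3l3l had 17.8, 32.1 and 41.8 CPM in Z+, 13.8, 14.8 and 17.04 CPM in A+ and 14.6, 18.7 and 22.2 CPM in Z- livers, and all Z+ fish lay above all A+ fish (log2 fold change 1.05, SE 0.20, edgeR adjusted p = 0.0035 in Z+ compared with A+). Its step with the transgene differed between the lines (1.32, edgeR adjusted p = 0.031). The stress factor genes atf6 and ddit3 were also higher in Z+ than in A+ livers, at 1.34 and 0.99 (adjusted p = 0.039 and 0.038). Of the 11, 3 were called higher and 1 lower with vitellogenin, beside 10.8% and 6.14% of all genes. The atf6 slope was 0.11 (edgeR adjusted p = 0.013), and 0.071 without Z+ fish 5 and Z- fish 2 (adjusted p = 0.36). That of ddit3 was -0.022 (adjusted p = 0.63). Vitellogenin genes had a median log2 fold change of 6.55 in Z+ compared with A+. Z+ fish 5 had 51.6% of its counts on them, against 1.34% or less in the other Z+ livers and 1.28% or less in A+ livers. Median vitellogenin scores were 8.05 in Z+ and 5.26 in A+ livers. The part of vitellogenin in the atf6 and ddit3 folds was not tested. In Z+ compared with Z- livers creb3l2, the zebrafish feelgood gene that drives COPII genes in cartilage, was higher at 1.57 (SE 0.40, edgeR adjusted p = 0.014). Whether creb3l2 acted on the COPII genes of these livers was not tested.

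COPII vesicles also carry the SREBP factors with their escort Scap, which Insig proteins hold back in the ER. Of 7 genes in this list, insig1 was lower in Z+ than in Z- livers (log2 fold change -1.35, SE 0.41, edgeR adjusted p = 0.033) and the protease gene mbtps2 higher (log2 fold change 0.92, SE 0.19, edgeR adjusted p = 0.0029). Of all genes, 5.17% were called lower there and 7% higher. In Z+ compared with A+ livers 0 of the 7 were called lower and 1 higher, where 5.92% and 5.91% of all genes were. The lowest fold change of the 7 there was -0.31. In A+ compared with A- livers 1 of the 7 was called lower and 0 higher, where 4.86% and 5.27% of all genes were. Of 18 tested ER folding genes, 12 were called higher with vitellogenin, among them hspa5, the main ER chaperone BiP (slope 0.15, SE 0.03, edgeR adjusted p = 0.003), and 0 lower, beside the 10.8% and 6.14% of all genes. Without Z+ fish 5 and Z- fish 2, 0 of the 18 were called (5 at an unadjusted p under 0.05) and the hspa5 slope was 0.10 (adjusted p = 0.20). In the comparisons of genotypes the folding list held 1 call in Z+ compared with A+, pdia6 lower at -1.22 (adjusted p = 0.016), 0 in Z+ compared with Z- (1 at an unadjusted p under 0.05) and 1 in A+ compared with A-, pdia4 higher at 1.64 (adjusted p = 0.023). Of all genes, 11.8%, 12.2% and 10.1% were called in these comparisons in either direction. Of 23 genes for secreted liver proteins, 6 were called lower with a higher vitellogenin score and 0 higher, beside the 6.14% and 10.8% of all genes. Among the 6 were ahsg2 and the apolipoprotein B genes apoba and apobb.1. Without the pair of fish 0 of the 23 were called, with 2 at an unadjusted p under 0.05.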

How the data were processed

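RNA was sequenced from 24 zebrafish livers, 6 of each genotype. The deposited table holds counts per gene: per the study's methods, the authors aligned reads with STAR (2.5.2b, in RNAsik 1.4.7) to GRCz11 (Ensembl release 92) with the transgene added, and counted them with featureCounts, without normalization. The study left out fish it called outliers; the labels name none, so all 24 were kept.

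Genes with more than 100 counts in at least 3 fish (11801 of 28210) were fitted with edgeR 4.0.16 (R 4.3.3; TMM, quasi-likelihood, 4 genotype means), with p-values adjusted by the Benjamini-Hochberg method over all of them. CPM used a prior count of 1 on the log2 scale. The interaction tested the difference of Z+ and Z- minus that of A+ and A-. A second fit added the vitellogenin score. Alternatives used DESeq2 1.42.0, limma 3.58.1 (voom), other scalings, filters and covariates, and left out fish. Scripts were tested on simulated data. Full values are given for the genes with the smallest adjusted p (up to 4 a comparison or direction) and for cargo receptors, sar1b, sec23 and sec24 genes, and for other lists up to 3 genes a comparison. The members and lists were chosen with earlier results of these data known. Depth was 33898825 to 44715713 counted reads, where 3 counts equal 0.0671 to 0.0885 CPM. Genome coordinates and sequences are not given here.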

Additional observations from a re-analysis of the deposited data

Results flagged for a closer look

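A test for a fish far from the other 5 of its genotype was run on 92 groups (23 genes in 4 genotypes). It marked 5 values, all in Z+ fish 5 or Z- fish 2. Genes of the same liver are not independent, so this number cannot be set against a chance rate. The 23 genes were those called in a comparison of genotypes or with vitellogenin. All 5 values belong to genes called with vitellogenin, and none of those calls was kept without Z+ fish 5 and Z- fish 2. The marks in these fish are thus no separate finding. In Z- fish 2, log2 CPM was 9.26 for mcfd2, against 7.54 in the next highest Z- fish. It was 9.23 for lman1, against 7.68. It was 8.99 for tmed10, against 7.66, and 5.33 for surf4l, against 4.41. In Z+ fish 5 the scaffold gene sec16b was low, at 4.61, against 5.40 in the next lowest Z+ fish. What sets these livers apart beyond vitellogenin was not tested.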

How the results depend on the processing

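Counts of called genes depended on the settings more than directions did. The share of all genes called moved between settings too. In Z+ compared with A+ (1 call), no filter gave 0, edgeR's own filter 2, the vitellogenin score as a covariate 4, limma voom 9, a threshold of 0.01 gave 0, leaving out Z+ fish 5 with Z- fish 2 gave 3, and leaving out A+ fish 2 with A- fish 6 gave 8; single fish left out gave 0 to 7. Of all genes, 11.8% were called in the main fit, 8.9% with no filter, 12.4% with edgeR's own filter and 18.7% with the score. By voom it was 16.7%, without Z+ fish 5 and Z- fish 2 14%, and without A+ fish 2 and A- fish 6 15.7%. In Z+ compared with Z- (6 calls), library totals gave 0, a fit of only those 2 genotypes 3, DESeq2 11, voom 11, a threshold of 0.01 gave 0, leaving out A+ fish 2 with A- fish 6 gave 13, and an exocrine pancreas score as a covariate 3; single fish left out gave 2 to 14. The main share of all genes was 12.2%. It was 4.14% on library totals, 18.6% with only those 2 genotypes, 18.2% by DESeq2 and 26% by voom. Without A+ fish 2 and A- fish 6 it was 24.2%, and with the pancreas score 9.89%. Against the mean of Z- and A- (8 calls), no filter gave 5, the replicate block 4, voom 13 and a threshold of 0.01 gave 1; single fish gave 3 to 14. Shares of all genes there were 16.8% in the main fit, 7.91% with no filter, 15.9% with the block and 29% by voom. In A+ compared with A- (4 calls), library totals gave 1, the vitellogenin covariate 7, a fit of only those 2 genotypes 1, voom 10 and a threshold of 0.01 gave 1; single fish gave 2 to 9. All genes had 10.1% called in the main fit, 4.61% on library totals and 15.6% with the covariate. With only those 2 genotypes it was 1.13%, and by voom 11.2%. The interaction had 2 calls by voom, where 4.03% of all genes were called, and 0 to 1 with single fish left out. For vitellogenin (14 calls), library totals gave 6, no filter 9, the replicate block 4, leaving out both high fish 0 and a threshold of 0.01 gave 5; single fish gave 5 to 17. Here 17% of all genes were called in the main fit and 12.4% on library totals. With no filter it was 5.46%, with the block 5.79% and without both high fish 0.652%. Fits without a pair of fish or with tissue scores were chosen after the data were seen.

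The copz1 difference in Z+ compared with A+, near 0, turned positive under edgeR's own filter (0.0074), with the vitellogenin covariate (0.012), in voom (0.015), without A+ fish 2 and A- fish 6 (0.017), and without Z+ fish 2 or A+ fish 2, 4 or 6, with adjusted p from 0.89 to 0.98. Over all single fish left out it was -0.0686 to 0.0304. Of 1486 values of single genes under alternatives, 1232 kept their direction and side of the threshold, 243 lost the call, 3 gained one and these 8 changed sign.

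Scaling by library totals moved the median of all genes in Z+ compared with A+ to -0.21, where 19.1% of calls were higher, beside 50% with TMM. For vitellogenin 11.8% of calls were higher on library totals, beside 63.8%. Whether replicate numbers pair the fish could not be told: same-numbered fish of different genotypes correlated by -0.24 to 0.29, above 0.1 in 7 of 24 pairs, 4 of them among the 6 of A+ with A-. With the replicate block, 1 gene was called in Z+ compared with A+, 4 in Z+ compared with Z-, 3 in A+ compared with A- (trappc2l had adjusted p = 0.05007) and 0 in the interaction. The shares of all genes were 6.68%, 10.7%, 4.81% and 0.449%. Counts were deep enough that no result rests on a floor.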
